A study of Homo sapiens with 8 samples.

Results

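The genes described here code for proteins of tight junctions and of one gap junction channel. They are the claudin genes CLDN1, CLDN3, CLDN4, CLDN7, CLDN11 and CLDN12, the occludin gene OCLN, the scaffold gene TJP1, the junctional adhesion molecule gene F11R, and GJA1, which codes for connexin-43. All probes that GEO's platform annotation gives to 1 of these 10 symbols were taken from the 47320 probes of the array. This gave 11 probes of 9 genes, with 2 probes each for OCLN and TJP1 and 1 for every other gene. F11R has no listed probe and was not analysed here.

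The RNA came from 22Rv1, a human prostate carcinoma cell line, and from derivatives of it that were recovered after propagation in vivo. Each of 4 groups had 2 single-colour Illumina bead arrays: 22Rv1-M3-2 and 22Rv1-M3-1, both labelled as metastatic tumour, 22Rv1-PT, labelled as primary tumour, and the parental cells 22Rv1-Luc2. No drug or other treatment is named for any group, and the label Luc2 is carried by the parental cells only. The sources used here do not give the host, the sites of the metastases, the number of animals or whether a line is 1 clone. They also do not say if both arrays of a group stem from different cultures or animals, so each p-value rests on a spread between arrays that may be purely technical.

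Tight junctions seal the space between neighbouring epithelial cells. Claudins form their strands and set which ions pass, occludin lies in the same strands, and the scaffold protein made from TJP1 ties both to the actin cytoskeleton. Connexins work at another contact, the gap junction, where they form channels that let small molecules pass directly between cells. In the prostate, luminal epithelial cells carry tight junctions, and GJA1 is the connexin of the basal cells.

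Values are log2 intensities as deposited. A probe was counted as above background where it exceeded 6.53, a level rebuilt from the deposited values, and 22608 probes above it on at least 2 arrays were tested. Where results are given with the background level subtracted, the level taken off was not 6.53 but the mode of the values, 6.11. It was subtracted on the linear scale, and remainders below a floor of 16 were set to 16. In total 9 of the 11 member probes were tested. Both OCLN probes were above background on 0 of the 8 arrays. Arrays of a group correlated across probes at 0.987 to 0.997. The 2 parental arrays were the least alike, with an SD between them of 0.215 on the log2 scale, against 0.106 to 0.163 in the derivatives. Of the prostate luminal markers on the array, 5 of 6 were above background in every group and KLK3, the gene of prostate-specific antigen, was not. Their summed intensity on a linear scale was 4710 to 4860 in M3-2, 3570 to 3710 in M3-1, 3960 to 4090 in PT and 2720 to 3200 in Luc2. Among markers of other cells, 0 of 5 endothelial genes and 0 of 2 basal epithelial genes were above background in any group. Of 4 leukocyte markers CD14, CD68 and LYZ were above background in every group and PTPRC, which defines leukocytes, in none. Their summed intensity was 2020 to 2300 in M3-2, 2290 to 2360 in M3-1, 2130 to 2260 in PT and 2390 to 2740 in Luc2. The list had 1 call against parental cells in M3-1 and 1 in PT, both for the same of 2 CD68 probes, which was lower by a log2 difference of -0.48 in M3-1 (adjusted p = 0.0456) and -0.59 in PT (0.0233). The part of these markers in the results was not tested. Fibroblast markers above background were COL1A1 in every group and DCN in the derivatives only, with summed intensities of the list of 868 to 872 in M3-2, 856 to 869 in M3-1, 852 to 861 in PT and 812 to 825 in Luc2. DCN was called higher in M3-2 than in parental cells and than in PT. Its mean log2 intensity was 7.16 in M3-2, 6.65 in M3-1, 6.58 in PT and 6.36 in Luc2. COL1A1 was not called in any comparison. The part of fibroblast markers in the results was not tested.

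The promoters of the 3 members with the widest range between group means are printed here, since CLDN11, GJA1 and CLDN1 carry the main differences. The sequences are RefSeq's on the build GRCh38.p14, from 250 bases before to 50 bases after the start of the gene, 5′ to 3′ on the gene's strand. CLDN11 lies at chr3:170418868-170434691, and its promoter is chr3:170418618-170418917 on the plus strand. GJA1 lies at chr6:121435646-121449727, and its promoter is chr6:121435396-121435695 on the plus strand. CLDN1 lies at chr3:190305707-190322446, and its promoter is chr3:190322397-190322696 on the minus strand. Capitals mark matches to the GC box letters GGGCGG, the CCAAT box or the AP-1 site letters TGANTCA, each searched on both strands.
CLDN11: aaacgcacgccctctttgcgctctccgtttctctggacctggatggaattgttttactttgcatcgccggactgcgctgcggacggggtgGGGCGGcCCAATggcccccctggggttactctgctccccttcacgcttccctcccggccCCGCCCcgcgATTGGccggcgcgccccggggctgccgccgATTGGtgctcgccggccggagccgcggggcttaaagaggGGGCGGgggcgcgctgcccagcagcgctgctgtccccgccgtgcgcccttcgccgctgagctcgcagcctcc
GJA1: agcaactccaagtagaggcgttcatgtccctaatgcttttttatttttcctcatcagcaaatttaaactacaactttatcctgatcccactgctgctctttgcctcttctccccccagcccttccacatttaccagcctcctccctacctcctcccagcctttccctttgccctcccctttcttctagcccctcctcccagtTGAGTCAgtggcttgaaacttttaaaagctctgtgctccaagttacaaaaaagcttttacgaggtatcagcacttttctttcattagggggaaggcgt
CLDN1: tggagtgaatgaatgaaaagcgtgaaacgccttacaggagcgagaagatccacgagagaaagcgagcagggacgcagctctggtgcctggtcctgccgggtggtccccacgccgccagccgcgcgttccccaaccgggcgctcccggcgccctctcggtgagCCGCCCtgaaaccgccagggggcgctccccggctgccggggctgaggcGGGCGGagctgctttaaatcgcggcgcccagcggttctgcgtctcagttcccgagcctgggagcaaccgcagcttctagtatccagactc

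The CLDN11 promoter held 3 GC boxes and 3 CCAAT boxes and had a GC content of 72%, against a median of 58.7% over all promoters. The GJA1 promoter had a GC content of 47% and held no GC box and no CCAAT box. Its single match was an AP-1 site at position -48 from the start. The CLDN1 promoter, with a GC content of 67%, held 2 GC boxes. Among 34796 promoters of the same length, 44.9% held a GC box, 34.6% a CCAAT box and 7.7% an AP-1 site. None of the 9 member promoters in the table held the TATA box letters TATAAA, which 11.6% of all promoters hold. None of the 3 promoters held a Snail-type E-box (CAGGTG) or an antioxidant response element (TGACNNNGC), which 20.6% and 13.3% of all promoters hold. No matches overlapped in the 3 sequences. A match or its absence describes these letters only.

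Differences were tested with limma over all 22608 probes and are called changed at an adjusted p below 0.05 (Benjamini-Hochberg over all tested probes). In M3-2 cells 3 of 9 tested member probes changed against parental cells: CLDN1 was higher, and CLDN11 and GJA1 were lower. The same comparison called 8.94% of all tested probes, 4.38% higher and 4.56% lower. In M3-1 cells 3 of 9 member probes changed against parental cells, CLDN1 higher and CLDN11 and GJA1 lower, where 7.14% of all probes were called, 3.22% higher and 3.91% lower. In PT cells 2 of 9 changed against parental cells, CLDN3 higher and CLDN11 lower, where 4.96% of all probes were called, 2.44% higher and 2.53% lower. These 3 comparisons share the parental arrays.

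Against PT cells, M3-2 had 2 of 9 member probes changed, CLDN1 higher and GJA1 lower, where 6.33% of all probes were called, 3.1% higher and 3.22% lower. M3-1 had 2 of 9 changed against PT, CLDN3 and GJA1, both lower, where 5.9% of all probes were called, 2.8% higher and 3.1% lower. Between M3-2 and M3-1 limma called 0 of 9 member probes, where 1.53% of all probes were called, 0.885% higher and 0.65% lower. At an unadjusted p below 0.05 there were 2 of 9, CLDN1 and CLDN3, where 8.83% of all probes had such a p. The median difference over the 9 member probes lay between -0.153 and 0.08 on the log2 scale in the 6 comparisons, and the median over all tested probes between -0.007 and 0.011.

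**Figure D1:**
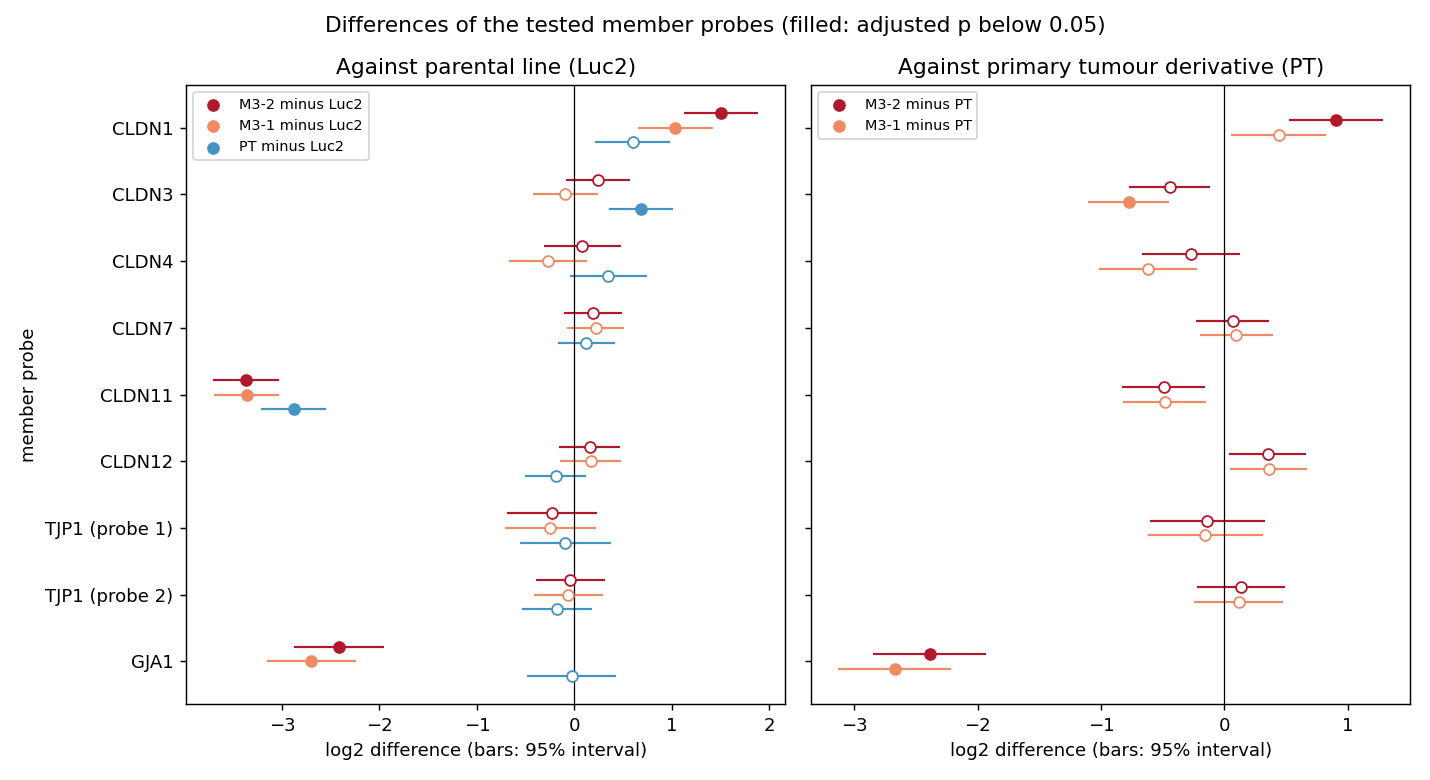
Log2 differences (x axis) of the 9 tested member probes (y axis) against parental cells (left) and against the primary tumour derivative (right), with bars for the 95% interval and filled points for an adjusted p below 0.05. Against parental cells CLDN11 lies at -3.37 in M3-2, -3.36 in M3-1 and -2.88 in PT, and GJA1 lies at -2.41 in M3-2, -2.70 in M3-1 and -0.03 in PT.

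CLDN11 codes for the claudin of myelin sheaths and of the Sertoli cell barrier in the testis. Its log2 intensity was 7.44 and 7.55 in M3-2, 7.71 and 7.29 in M3-1, 8.03 and 7.93 in PT, and 10.74 and 10.99 in Luc2. The parental arrays were far above the 6 arrays of the derivatives, all of which were still above background. In bulk RNA fewer cells that express a gene and less of its RNA per cell cannot be told apart. CLDN11 fell by 3.37 in M3-2 against parental cells (SE 0.154, adjusted p = 5.03e-08), which is 10.3-fold lower. In M3-1 it fell by 3.36 (SE 0.154, adjusted p = 5.74e-08). The PT cells were 7.36-fold lower than parental cells, the log2 difference being -2.88 (SE 0.154, adjusted p = 5.79e-07).

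Among the derivatives CLDN11 was lowest in both metastatic lines, whose arrays overlapped each other and lay below both PT arrays. The differences between the metastatic lines and PT did not pass, at -0.49 in M3-2 (adjusted p = 0.0873) and -0.48 in M3-1 (adjusted p = 0.0981). Between M3-2 and M3-1 the difference was -0.01, with a 95% interval of -0.343 to 0.327 (adjusted p = 0.996). The difference in M3-1 passed when arrays were weighted (0.0271) or only the 2 groups fitted (0.0343), and that in M3-2 with only the 2 groups in the fit (0.0420). Every alternative tried kept the 3 calls against parental cells, and with the background level subtracted CLDN11 was 16.2-fold lower in M3-2 and in M3-1. Of the other Sertoli cell and oligodendrocyte markers, SOX9, a transcription factor of Sertoli and other cells, was higher in M3-2 than in parental cells by 0.57 (adjusted p = 0.0234). The anti-Müllerian hormone gene AMH and the myelin gene MBP were not called against parental cells in any derivative, and MOG, a myelin surface protein gene, was not above background in any group.

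GJA1, the gene of connexin-43, had log2 intensities of 6.75 and 6.63 in M3-2, 6.42 and 6.39 in M3-1, 8.95 and 9.20 in PT, and 8.69 and 9.51 in Luc2. Both M3-1 arrays were below background and both M3-2 arrays just above it, while PT and parental arrays lay well above and overlapped each other. Against parental cells GJA1 fell by 2.41 in M3-2 (SE 0.21, adjusted p = 1.13e-05), or 5.33-fold. In M3-1 it was at least 5.93-fold lower, counted against the background level, with a measured difference of -2.70 (SE 0.21, adjusted p = 5.18e-06). Against PT, M3-2 was 5.23-fold lower (adjusted p = 2.36e-05) and M3-1 at least 5.81-fold lower (adjusted p = 8.87e-06). The 4 calls held in every alternative tried. With the background level subtracted GJA1 was 14.2-fold lower in M3-2 and 29.4-fold lower in M3-1 than in parental cells, and 13.9-fold and 28.9-fold lower than in PT. The M3-1 arrays were close to the floor of 16 after this subtraction, so the M3-1 folds depend on that floor and are not precise.

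PT and parental cells differed in GJA1 by -0.03, with a 95% interval of -0.487 to 0.429 (adjusted p = 0.970). The SD between the parental arrays was 0.58, the widest of any group for this gene. M3-2 and M3-1 did not differ by the test either (0.28, adjusted p = 0.797). GJA1 has a listed pseudogene, GJA1P1 on chromosome 5, and whether the probe tells them apart was not tested.

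**Figure D2:**
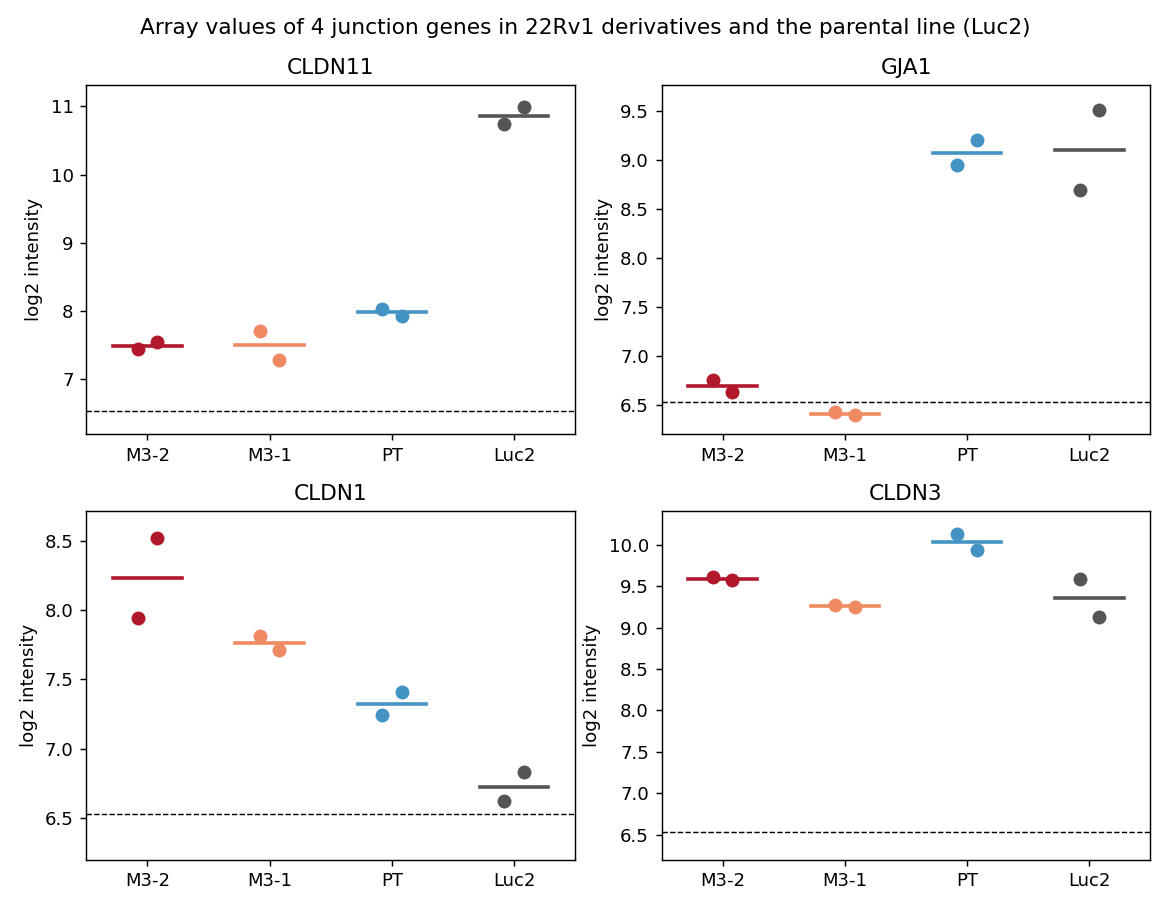
Log2 intensity (y axis) on each array (points) with the group mean (line) for CLDN11, GJA1, CLDN1 and CLDN3 in M3-2, M3-1, PT and parental cells (Luc2); the dashed line is the background level of 6.53. CLDN11 is high in the parental cells alone, GJA1 in PT and parental cells, and CLDN1 has its lowest arrays, 6.62 and 6.83, in parental cells.

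The genes most like each were taken as those with the smallest Euclidean distance over the 8 arrays after centring each probe on its own mean, without regard to function. For CLDN11 they were PPP2R2B, a regulatory subunit of a protein phosphatase (distance 1.042), CFC1, a Nodal co-receptor gene (1.124), and CRIP1, a LIM domain protein gene (1.228). PPP2R2B had 7.45 and 7.45 in M3-2, 7.56 and 7.57 in M3-1, 8.0 and 7.95 in PT, and 10.09 and 10.06 in Luc2. For GJA1 they were CNTNAP2, a neurexin-family adhesion gene (0.902), DNAJA4, a co-chaperone gene (1.045), and NMNAT2, an enzyme of NAD synthesis (1.089). CNTNAP2 had 6.52 and 6.38 in M3-2, 6.55 and 6.70 in M3-1, 9.25 and 9.27 in PT, and 9.24 and 9.05 in Luc2. Like GJA1 it was near background in both metastatic lines and high in PT and parental cells.

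The protein-coding neighbours of the members, 3 on each side, were examined as a choice made after seeing the values. Of the 6 neighbours of GJA1, 5 had a tested probe, 6 probes in all, and 1 neighbour changed. Against parental cells limma called 1 of the 6 probes in M3-2 and in M3-1, where 8.94% and 7.14% of all probes were called. Against PT it called 1 in each line, where 6.33% and 5.9% of all probes were called. In these comparisons 1 to 2 of the 6 had an unadjusted p below 0.05, against 17.5% to 19.8% of all probes. PKIB, which codes for an inhibitor of cAMP-dependent protein kinase, had log2 intensities of 7.95 and 8.28 in M3-2, 7.69 and 7.94 in M3-1, 9.0 and 8.68 in PT, and 9.26 and 9.0 in Luc2. All 4 metastatic arrays were below all PT and parental arrays. PKIB fell by 1.01 in M3-2 (adjusted p = 0.00159) and by 1.32 in M3-1 (adjusted p = 0.000269) against parental cells, and was not called in PT (-0.29, adjusted p = 0.413). It was also lower than in PT, by 0.72 in M3-2 (adjusted p = 0.0208) and 1.03 in M3-1 (adjusted p = 0.00235). The M3-2 call against PT ended with the background level subtracted (0.0801), without PT replicate 1 (0.205) and without M3-2 replicate 1 (0.218), and the M3-1 call without M3-1 replicate 1 (0.0591). The second PKIB probe was not tested, being too dim.

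FAM184A, MAN1A1 and TBC1D32 on one side of GJA1 and SERINC1 on the other were not called in any comparison. Around CLDN11, 5 of 6 neighbours (PHC3, PRKCI, SKIL, RPL22L1 and EIF5A2) had 6 tested probes. None was called by limma in any of the 6 comparisons, and 0 to 2 of the 6 probes had an unadjusted p below 0.05 in each, where 8.83% to 19.8% of all probes had one. Their differences from parental cells ran from -0.325 to 0.053 in M3-2, from -0.208 to 0.006 in M3-1 and from -0.327 to 0.121 in PT, while CLDN11 between them fell by 2.88 or more. Of the 6 neighbours of CLDN1, 3 were tested and limma called 0, with 0 to 1 at an unadjusted p below 0.05 in each comparison. Of the 6 neighbours of CLDN3, itself beside CLDN4, 5 had 6 tested probes. Against PT limma called 1 of the 6 probes in M3-2 and 2 in M3-1, where 6.33% and 5.9% of all probes were called. An unadjusted p below 0.05 was found for 2 and 4 of the 6, against 19.5% and 18% of all probes. BUD23 was higher than in PT by 0.54 in M3-2 (adjusted p = 0.0304) and 0.51 in M3-1 (0.0429). For ABHD11, 1 of 2 probes was lower in M3-1 than in PT, with a difference of -0.54 (0.0393). Around CLDN4 the called genes were CLDN3 and ABHD11.

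**Figure D3:**
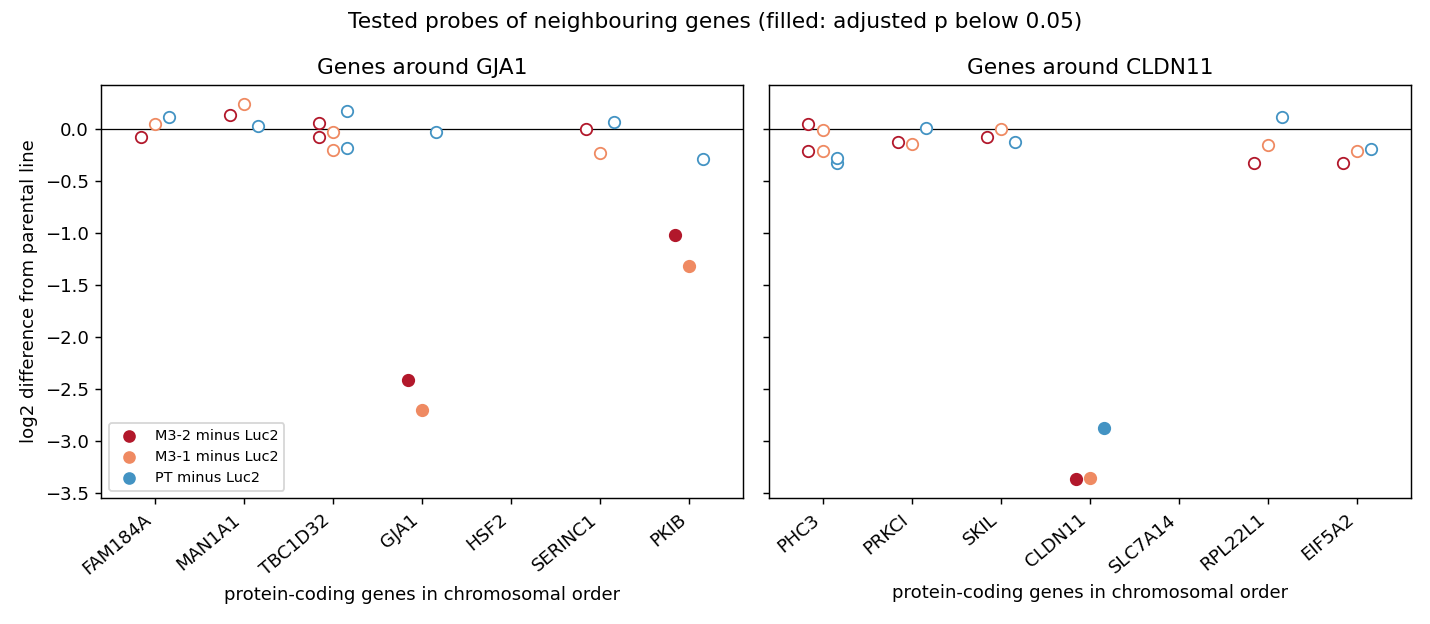
Log2 difference from parental cells (y axis) of tested probes of GJA1 (left) and CLDN11 (right) and of 3 protein-coding genes on each side, in chromosomal order without distances; filled points have an adjusted p below 0.05, and HSF2 and SLC7A14 have no tested probe. PKIB is the neighbour with filled points, at -1.01 in M3-2 and -1.32 in M3-1.

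CLDN1 codes for a barrier claudin that is needed for the water barrier of the skin. Its log2 intensity was 7.94 and 8.52 in M3-2, 7.81 and 7.71 in M3-1, 7.24 and 7.41 in PT, and 6.62 and 6.83 in Luc2. The groups did not overlap, and their order from high to low was M3-2, M3-1, PT and Luc2. CLDN1 was 2.83-fold higher in M3-2 than in parental cells, a log2 difference of 1.5 (SE 0.175, adjusted p = 0.000124). In M3-1 it was 2.05-fold higher (1.04, SE 0.175, adjusted p = 0.00269). PT cells differed from parental cells by 0.60 and did not pass (adjusted p = 0.0803).

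Against PT, CLDN1 was higher in M3-2 by 0.91 (adjusted p = 0.00833) and differed in M3-1 by 0.44 without passing (adjusted p = 0.197). The steps between neighbours in this order did not pass in the main fit, which used no array weights and no replicate block. M3-2 differed from M3-1 by 0.47 with a 95% interval of 0.0848 to 0.849 (adjusted p = 0.385). The step between M3-1 and PT passed when arrays were weighted (0.0419) or only the 2 groups fitted (0.0216). The M3-1 call against parental cells ended without M3-1 replicate 1 (adjusted p = 0.0508), and the M3-2 call against PT without PT replicate 1 (0.0879) or without M3-2 replicate 2 (0.0587). Parental values lay close to background, and with the background level subtracted the log2 difference from parental cells was 2.67 in M3-2 and 2.04 in M3-1.

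CLDN3 and CLDN4 are intronless barrier claudins that serve as receptors of Clostridium perfringens enterotoxin. They lie 60.7 kb apart, CLDN3 at chr7:73768997-73770270 and CLDN4 at chr7:73830996-73832690. CLDN3 had log2 intensities of 9.61 and 9.57 in M3-2, 9.27 and 9.25 in M3-1, 10.13 and 9.94 in PT, and 9.58 and 9.13 in Luc2. The PT arrays were above all others. CLDN3 was 1.60-fold higher in PT than in parental cells (0.68, SE 0.151, adjusted p = 0.0215), and 1.71-fold lower in M3-1 than in PT (-0.77, SE 0.151, adjusted p = 0.00863). M3-2 differed from PT by -0.44 and did not pass (adjusted p = 0.116). Neither metastatic line was called against parental cells, with differences of 0.24 in M3-2 (adjusted p = 0.452) and -0.09 in M3-1 (adjusted p = 0.847).

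Both CLDN3 differences kept their direction in every alternative tried, but neither call was kept in all of them. The difference in PT against parental cells ran from 0.458 to 0.906 over the alternatives. Its call ended with only these 2 groups in the fit (adjusted p = 0.118) or the background level subtracted (0.0959). It also ended without Luc2 replicate 2, PT replicate 1 or PT replicate 2, at differences of 0.458, 0.589 and 0.775. The difference in M3-1 against PT ran from -0.866 to -0.681. Its call ended with the background level subtracted (adjusted p = 0.0555). It also ended without PT replicate 1, M3-1 replicate 1 or M3-1 replicate 2, at differences of -0.681, -0.784 and -0.763. A fit with 1 array left in a group can lose a call for lack of arrays, so these losses alone do not show dependence on 1 array. The size of the difference in PT did depend on the parental array kept, at 0.458 without Luc2 replicate 2 against 0.682 with all arrays.

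CLDN4 had log2 intensities from 7.12 to 7.22 in M3-2, 6.63 to 7.0 in M3-1, 7.36 to 7.52 in PT and 6.81 to 7.37 in Luc2. As for CLDN3, its mean was highest in PT and lowest in M3-1, and the 2 probes correlated at 0.879 over the 8 arrays, which share their groups and labelling. CLDN4 was not called in any comparison. Its widest difference was -0.62 in M3-1 against PT (SE 0.182, adjusted p = 0.0723), which passed with array weights (0.00812), with only these 2 groups in the fit (0.00797) and with the brightest probe per gene (0.0475). Without Luc2 replicate 1 it was also higher in PT than in parental cells, by 0.63 (adjusted p = 0.0343), against 0.35 with all arrays (0.358).

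CLDN7, a claudin of the lateral membrane that binds the adhesion molecule EPCAM, ranged over the arrays from 12.26 to 12.28 in M3-2, 12.27 to 12.32 in M3-1, 12.12 to 12.28 in PT and 11.92 to 12.24 in Luc2. It was not called in any comparison, and its group means spanned 0.22. CLDN12, an atypical claudin without the usual binding motif for scaffold proteins, had group means from 9.32 ± 0.19 in PT to 9.68 ± 0.05 in M3-1 (SD, n = 2 each). It was not called either, the widest difference being 0.36 in M3-1 against PT (adjusted p = 0.194), which passed with array weights (0.0471).

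TJP1 codes for the scaffold protein zonula occludens-1. Its 2 probes had group means of 9.42 and 8.74 in M3-2, 9.40 and 8.72 in M3-1, 9.56 and 8.60 in PT, and 9.65 and 8.78 in Luc2, and neither was called. The parental arrays were wide apart, 9.26 and 10.04 on the first probe and 8.54 and 9.02 on the other. The first probe's difference from parental cells turned on which of these arrays was kept. Without Luc2 replicate 1 it was -0.62 in M3-2 (adjusted p = 0.0307) and -0.64 in M3-1 (0.0312), and without Luc2 replicate 2 it was 0.16 in M3-2 (0.610) and 0.145 in M3-1 (0.681). The 2 OCLN probes ranged from 5.81 to 6.01 and from 5.74 to 6.17 over the 8 arrays, all below background, so no level or difference is given for this gene. OCLN also has a listed pseudogene, OCLNP1.

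Other junction genes were described by 5 lists. For 18 other claudins, 17 were on the array but only 6 had a tested probe, 7 probes in all. None of the 7 was called against parental cells in any derivative, where the medians were -0.09 in M3-2, 0.04 in M3-1 and -0.03 in PT. At an unadjusted p below 0.05 there were 0 in M3-2, 1 in M3-1 and 0 in PT by limma, where 19.8% of all probes in M3-2, 17.5% in M3-1 and 17.7% in PT had such a p. CLDN23 was called in M3-1 against PT, higher by 0.50 (adjusted p = 0.0253). That call ended with the background level subtracted (adjusted p = 0.0588). It also ended without any 1 of the 4 arrays compared, though the difference stayed at 0.49 to 0.52.

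Of 20 tested probes of tight junction plaque and membrane proteins, 1 rose in M3-2, 1 rose in M3-1 and 2 rose in PT against parental cells, and 0 fell. Over all tested probes 4.38% in M3-2, 3.22% in M3-1 and 2.44% in PT were called higher. IGSF5, a junctional adhesion molecule of the immunoglobulin superfamily, was called in all 3. It had log2 intensities of 7.41 and 7.17 in M3-2, 7.02 and 6.92 in M3-1, 7.38 and 7.35 in PT, and 6.44 and 6.42 in Luc2. Parental cells alone were below background. IGSF5 was at least 1.69-fold higher in M3-2 (adjusted p = 0.000681), at least 1.35-fold in M3-1 (0.0188) and at least 1.78-fold in PT (0.000731). With the background level subtracted these folds were 5.18 in M3-2, 3.35 in M3-1 and 5.72 in PT. The parental arrays were then close to the floor of 16, so these folds are not precise. The M3-1 call ended without M3-1 replicate 1 (0.212) or 2 (0.114). ILDR1, an angulin of contacts between 3 cells, was higher in PT by 0.52 (adjusted p = 0.0280). This call ended with the background level subtracted (0.0783), with array weights (0.0637) or with only the 2 groups in the fit (0.126). It also ended without Luc2 replicate 2, PT replicate 1 or PT replicate 2, at differences of 0.445, 0.555 and 0.482. The median difference of the 20 probes was 0.06 in M3-2, 0.10 in M3-1 and -0.07 in PT.

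The apical polarity complexes, which place the junction along the cell's side, had 23 tested probes of 12 genes. The only calls were for LLGL2, a basolateral polarity gene, in M3-1, with 1 of 23 probes called against parental cells and 1 against PT. Over all tested probes 7.14% and 5.9% were called in these comparisons. An unadjusted p below 0.05 by limma was found for 5 and 7 of the 23, against 17.5% and 18% of all probes. One LLGL2 probe was higher than in parental cells by 0.48 (adjusted p = 0.0298). Another was higher than in PT by 0.52 (adjusted p = 0.0404), or by 1.11 with the background level subtracted. The remaining tested LLGL2 probe was not called in any comparison. The call against parental cells ended with only the 2 groups in the fit (adjusted p = 0.0802). It also ended without M3-1 replicate 1, M3-1 replicate 2 or Luc2 replicate 2, at differences of 0.429, 0.528 and 0.423. The call against PT ended without any 1 of the 4 arrays compared, though the difference stayed at 0.49 to 0.55.

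Besides GJA1, 7 of 18 connexin and pannexin genes on the array were tested, with 1 probe each. GJB1, the connexin of liver and Schwann cells, had log2 intensities of 7.20 and 7.01 in M3-2, 7.60 and 7.69 in M3-1, 7.16 and 7.25 in PT, and 7.22 and 7.0 in Luc2. The M3-1 arrays were above all others. GJB1 was higher in M3-1 than in parental cells by 0.54 (adjusted p = 0.0251), a call that ended with only the 2 groups in the fit (0.0626). It also ended without Luc2 replicate 2, M3-1 replicate 1 or M3-1 replicate 2, at differences of 0.43, 0.586 and 0.491. GJB2, a connexin of the inner ear and skin, was lower in M3-2 than in PT by a log2 difference of -0.53 (adjusted p = 0.0277). It lost this call without any 1 of the 4 arrays compared, where the difference was -0.64 to -0.42. With the background level subtracted this difference was -1.41. None of the 7 was lower than in parental cells by the test. Over all tested probes 4.56% in M3-2, 3.91% in M3-1 and 2.53% in PT were called lower. An unadjusted p below 0.05 by limma was found for 0 of 7 in M3-2, 1 in M3-1 and 1 in PT. Of all probes 19.8% in M3-2, 17.5% in M3-1 and 17.7% in PT had such a p.

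Junction regulators and claudin partners had 12 tested probes of 8 genes. In M3-2 against parental cells 4 probes of 3 genes rose and 0 fell, with a median of 0.32 over the 12. Over all tested probes 4.38% were called higher there and 4.56% lower. In M3-1 and in PT limma called 0, with medians of 0.08 and 0.09. An unadjusted p below 0.05 by limma was found for 7 of 12 in M3-2, 4 in M3-1 and 2 in PT. Of all probes 19.8% in M3-2, 17.5% in M3-1 and 17.7% in PT had such a p. ELF3, an epithelial ETS transcription factor, had log2 intensities of 9.84 and 9.72 in M3-2, 9.14 and 9.17 in M3-1, 9.33 and 9.20 in PT, and 9.23 and 9.07 in Luc2. M3-2 was above all other arrays. ELF3 was higher in M3-2 than in parental cells by 0.63 (adjusted p = 0.00605; 0.0640 without M3-2 replicate 1) and than in PT by 0.52 (adjusted p = 0.0277; 0.0577 to 0.213 without any 1 of the 4 arrays).

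EPCAM, which binds CLDN7, was higher in M3-2 than in parental cells on 2 of 3 probes, by 0.73 (adjusted p = 0.0327) and 0.51 (0.0380). Without M3-2 replicate 1 these adjusted p-values were 0.306 and 0.300. The first probe also lost its call without Luc2 replicate 2 (0.0726) and the other without Luc2 replicate 1 (0.0789). OVOL2, a zinc finger gene that maintains epithelial state, was higher by 0.49 (adjusted p = 0.0372), and was not called without Luc2 replicate 2 (0.137), M3-2 replicate 1 (0.145) or M3-2 replicate 2 (0.138). The EPCAM and OVOL2 calls also ended with the background level subtracted, with only the 2 groups in the fit and with array weights (adjusted p from 0.0569 to 0.143). The prostate luminal markers went both ways in M3-2 against parental cells, where 3 of 6 tested probes were higher and 1 lower. Over all tested probes 4.38% were called higher there and 4.56% lower. KRT8 was higher by 0.99 (adjusted p = 0.00034) and both KRT18 probes by 1.11 (0.000201 and 0.000135), keratins of simple epithelia. TMPRSS2, an androgen-regulated protease gene, was lower by a log2 difference of -0.91 (adjusted p = 0.00188). The summed intensity of the list, highest in M3-2, weights bright probes such as KRT8 most. The part of these markers in the result was not tested.

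**Figure D4:**
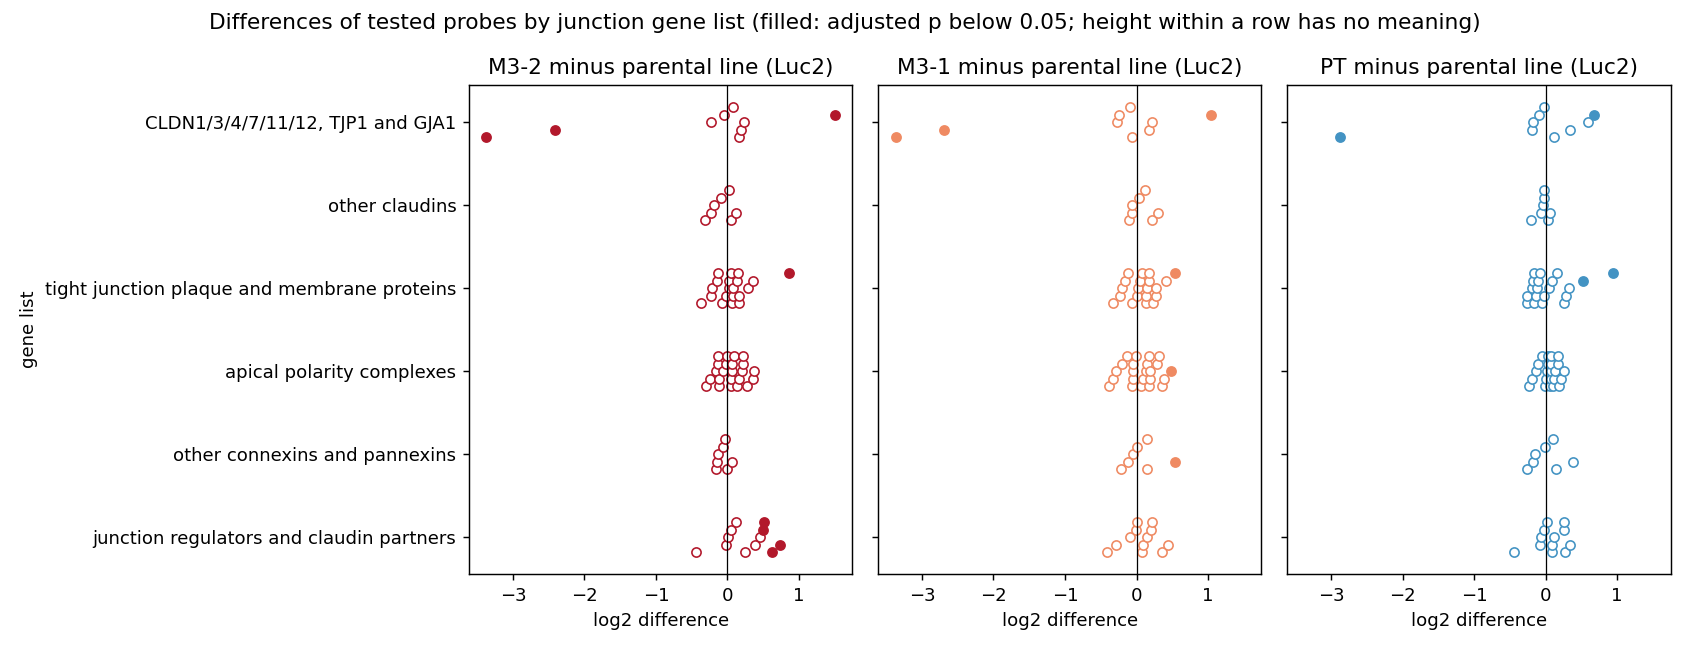
Log2 difference from parental cells (x axis) of every tested probe (points) of the described members and of 5 lists of other junction genes (rows), in M3-2, M3-1 and PT; filled points have an adjusted p below 0.05. The points farthest to the left are CLDN11 in all 3 panels and GJA1 in M3-2 and M3-1, both in the top row, and the filled point of the 5 lists farthest to the right is IGSF5 at 0.94 in PT.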

How the data were processed

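RNA of 8 samples was measured on single-colour Illumina bead arrays. All results use the log2 intensities of 47320 probes as the authors deposited them. The sources used here give neither their background correction nor their normalization. Per the values, the arrays share 1 distribution (largest spread at any rank 0.012). A second deposited table was not used, since its 16 columns of values match no sample's labels, so the background level was rebuilt from the log2 values (mode 6.11, SD 0.181, level 6.53, which a share of 0.01 of such a background exceeds). GEO's platform annotation named the probes, with 1 symbol for 30112 probes, several for 8 and none listed for 17200. Limma 3.58.1 in R 4.3.3 fitted 4 group means to all 8 arrays (lmFit, eBayes, 4 residual and 8.06 prior degrees of freedom), and was tested on simulated data. P-values were adjusted over all 22608 tested probes. A log2 difference was turned into a fold as a power of 2, given as "at least" against 6.53 where a group was at or below it on both arrays. Folds of dim probes may be understated, since no background was subtracted here in the main fit and any earlier correction is not given. The number of arrays, 2 in each group, limits the precision. The members and lists were chosen with earlier results of these data known. The text gives every member, at most 4 called genes per list of other junction genes, those with the widest range of group means, and the 3 genes nearest to each of the 2 members with the widest range. Alternatives changed the filter, background, normalization, probe rule, array weights, samples in the fit, replicate block and arrays left out. The background alternative subtracted the mode of 6.11 on the linear scale, with a floor of 16. The replicate numbers of the labels were not taken as pairs.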

Additional observations from a re-analysis of the deposited data

Results flagged for a closer look

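Between M3-2 and M3-1 limma called 2 of 12 tested probes of junction regulators and claudin partners, both higher in M3-2. Over all tested probes 1.53% were called there, 0.885% higher. At an unadjusted p below 0.05 by limma there were 3 of 12, where 8.83% of all probes had such a p. ELF3 was higher in M3-2 than in M3-1 by 0.63 on the log2 scale (adjusted p = 0.0238), with 9.84 and 9.72 in M3-2 and 9.14 and 9.17 in M3-1. GRHL1, a grainyhead-family transcription factor gene of epithelia, differed by 0.53 (adjusted p = 0.0494), with 7.06 and 6.96 in M3-2 and 6.43 and 6.53 in M3-1, where it was not above background. It was at least 1.39-fold higher in M3-2, and 3.04-fold with the background level subtracted. Little of the M3-1 signal remained after this subtraction, so the 3.04-fold is not precise. With any 1 of the 4 arrays left out, ELF3 differed by 0.57 to 0.69 and GRHL1 by 0.48 to 0.58. Both calls ended in these fits, which leave 1 array in a group and can lose a call for that reason. The ELF3 call also ended with the background level subtracted (adjusted p = 0.114). The second GRHL1 probe, at 6.68 and 6.40 in M3-2 and 6.66 and 6.33 in M3-1, was not called.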

How the results depend on the processing

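Of 54 member results, 12 were called, and 8 of these kept their direction and call in each of the 11 to 12 alternatives: CLDN11 in all 3 derivatives and CLDN1 in M3-2 against parental cells, and GJA1 in both metastatic lines against parental cells and against PT. The other 4, for CLDN3 and CLDN1, lost the call in at least 1, as given above. Of the uncalled results 9 passed in at least 1 alternative and 20 changed sign. With only the groups compared in the fit, 454 probes were called in PT and 1195 in M3-2 against parental cells (against 1122 and 2021), 2880 in M3-1 against PT (1334) and 540 in M3-2 against M3-1 (347). Array weights gave 3103 and 633 for these last 2. Member probes called in PT against parental cells numbered 1 with the background subtracted and 1 with only the groups compared, in place of 2. In M3-1 against PT they numbered 1 with the background subtracted, 5 with only the groups compared and 6 under array weights, in place of 2. With each array left out in turn, PT against parental cells gave 432 to 1767 probes and 1 to 3 members, M3-1 gave 669 to 2019 and 2 to 4, and M3-2 gave 1148 to 2567 and 3 to 4. Against PT, M3-1 gave 457 to 662 and 1 to 2, and M3-2 gave 573 to 1166 and 1 to 2. M3-2 against M3-1 gave 87 to 258 and 0 members. Where 1 array of a group remained, it was assumed to vary like the other groups. A call could then end with little change in its difference. With the replicate number as a block, the counts were 1460 in PT, 1888 in M3-1 and 2309 in M3-2 against parental cells, 1651 in M3-1 and 1851 in M3-2 against PT, and 443 between the metastatic lines. CLDN1 in PT against parental cells (adjusted p = 0.0265) and CLDN4 in M3-1 against PT (0.0189) then passed, and no member lost a call. No label ties arrays of the same number, and their deviations from the group means correlated between groups at -0.155 to 0.501, highest between PT and parental cells, so pairing was not assumed. Subtracting the mode of 6.11 moved GJA1 against parental cells to -3.83 in M3-2 and -4.88 in M3-1, CLDN11 to -4.02 in each, and CLDN1 to 2.67 and 2.04. The GJA1 arrays of M3-1 then lay close to the floor of 16. The cause was not tested for any of these shifts. Background correction with control probes and a block for the slide were not run, since no column or label gives what they need.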
